A study of Mus musculus with 4 samples.

Results

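The genes described here encode enzymes of cholesterol and fatty acid synthesis together with the regulators that switch them on and off. The list names 29 genes, and 28 of them had at least 1 probe set annotated to that gene alone, out of 18193 genes measured. Where a gene had several probe sets, the one with the highest mean over the 4 arrays was used. Acat2, which encodes the cytosolic enzyme that joins acetyl-CoA units at the head of the pathway, had no such probe set in the annotation used here and is not analysed.

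RNA came from FACS-sorted hair follicle stem cells (HFSCs) of C57BL/6 mouse skin at postnatal day 4. These epithelial cells renew the follicle through the hair cycle. 2 arrays carried RNA from cells lacking miR-205 (KO) and 2 from wild-type cells (WT), each pair numbered 1 and 2 as biological replicates. The labels name neither the miR-205 allele nor a Cre driver, and they do not say how many animals stand behind a number, so that p-values measure only the spread between these samples, which may be technical. The labels' treatment text, the same for all samples, belongs to a doxycycline-induced miR-203 mouse and was not used. Total RNA was hybridised to 1-colour Affymetrix mouse arrays, and values are on the log2 scale, so that a step of 1 is a doubling.

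Cholesterol is built from acetyl-CoA through mevalonate, the isoprenoid diphosphates, squalene and lanosterol, and fatty acids are built from the same acetyl-CoA after its carboxylation. Both routes are controlled by the sterol regulatory element-binding proteins (SREBPs), membrane-bound transcription factors that SCAP carries out of the endoplasmic reticulum when sterols are low and that INSIG proteins hold back when sterols are high. SREBP-2, from Srebf2, acts mainly on cholesterol genes and SREBP-1, from Srebf1, mainly on fatty acid genes. In skin, these lipids supply the epidermal barrier and sebum.

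The microRNA that separates the groups is shown because its absence defines the KO cells. Its mature strand lies at chr1:193507503-193507524 on the minus strand (RefSeq, GRCm38.p6), with its seed, bases 2 to 8, in capitals.
mmu-miR-205-5p: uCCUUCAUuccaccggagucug

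Promoters of 4 members are shown because these genes were among the 8 that differed most between the array numbers and have 1 annotated start each. Each run is the 250 bases before the start, read 5′ to 3′ on the gene's strand, from RefSeq (GRCm38.p6). Capitals mark CCAAT, the box bound by NF-Y, and GGGCGG, the GC box bound by Sp1, on either strand. Both factors are known to act beside SREBPs. Mvd lies at chr8:122443423-122443672 on the minus strand, Msmo1 at chr8:64733579-64733828 on the minus strand, Srebf2 at chr15:82147019-82147268 on the plus strand and Acss2 at chr2:155517793-155518042 on the plus strand.
Mvd: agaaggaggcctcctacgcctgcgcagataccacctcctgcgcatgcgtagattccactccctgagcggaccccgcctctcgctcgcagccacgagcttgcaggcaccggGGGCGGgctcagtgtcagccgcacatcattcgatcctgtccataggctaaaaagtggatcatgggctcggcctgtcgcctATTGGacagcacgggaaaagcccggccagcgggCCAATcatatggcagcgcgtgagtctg
Msmo1: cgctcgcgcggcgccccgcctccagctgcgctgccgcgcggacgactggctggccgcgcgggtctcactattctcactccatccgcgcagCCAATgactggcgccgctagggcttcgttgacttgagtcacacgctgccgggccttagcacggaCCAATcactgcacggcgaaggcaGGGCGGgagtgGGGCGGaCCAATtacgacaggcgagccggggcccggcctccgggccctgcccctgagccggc
Srebf2: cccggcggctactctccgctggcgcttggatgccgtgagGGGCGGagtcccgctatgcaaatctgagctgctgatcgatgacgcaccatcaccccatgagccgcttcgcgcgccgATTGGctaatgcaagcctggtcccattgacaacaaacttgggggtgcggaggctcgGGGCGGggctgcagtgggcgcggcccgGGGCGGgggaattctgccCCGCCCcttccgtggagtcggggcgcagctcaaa
Acss2: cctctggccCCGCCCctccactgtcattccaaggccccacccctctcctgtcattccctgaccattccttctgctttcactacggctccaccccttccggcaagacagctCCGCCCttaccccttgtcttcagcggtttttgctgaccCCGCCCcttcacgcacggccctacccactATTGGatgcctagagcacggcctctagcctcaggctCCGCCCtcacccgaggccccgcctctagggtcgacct

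Of the 28 measured members, 24 had a promoter in the RefSeq table. CCAAT stood in the 250 bases before a start in 21 of the 24, against 39.4% of the 14452 measured genes with a promoter there and 33.8% of all 32851 windows. GGGCGG stood in 21 of the 24, against 53.4% of measured genes and 32.7% of all windows. The E-box CACGTG, another sequence that SREBPs can bind, stood in 5 of the 24 (Hsd17b7, Sc5d, Dhcr7, Scap and Insig1), against 8.73% of measured genes and 6.02% of windows. The sterol regulatory element, searched as TCACNCCAC on both strands, stood in Hmgcs1 alone of the 24, against 1.27% of measured genes and 1.05% of windows. The motifs searched do not overlap one another in the 4 promoters shown. Msmo1 held 3 CCAAT boxes, from 160 to 51 bases before its start, Mvd 2, from 60 to 23 bases before it, and Srebf2 and Acss2 1 each. GC boxes numbered 4 in Srebf2, 4 in Acss2, 2 in Msmo1 and 1 in Mvd. These matches describe letters in a fixed window and show no binding.

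Array values ran from 2.51 to 14.56, and array medians from 5.85 to 5.87. All 28 members lay at or above the mean level of the median gene (6.88). The labelled cell type was checked against 9 HFSC markers (Sox9, Lhx2, Krt15 and others) and 7 basal keratinocyte markers, all of which also lay at or above it. So did 9 of 10 dermal fibroblast, 5 of 6 differentiated epidermis and 6 of 8 sebaceous markers. Fewer did among melanocyte (3 of 5), adipocyte (2 of 7), endothelial (1 of 5) and immune markers (0 of 5). The check thus cannot tell HFSCs from fibroblasts or from other skin epithelium. Among the HFSC markers, Cd34 exceeded that level on WT 1 alone. The 10 dermal fibroblast markers had a median value of 9.08 on KO 1 and 8.74 on KO 2, against 10.34 on WT 1 and 8.37 on WT 2, and 9 of the 10 were higher on both number 1 arrays than on both number 2 arrays. Control probe sets also split by number. For Actb, the excess of 3′ over 5′ signal, which grows as RNA degrades, was 0.67 on KO 1 and 0.63 on WT 1, against 0.31 on KO 2 and 0.39 on WT 2. For Gapdh it was smaller, at 0.15 on KO 1 and 0.031 on WT 1, against -0.12 on KO 2 and -0.11 on WT 2. The 5′ control of 18S ribosomal RNA was at 11.51 on KO 1 and 11.59 on WT 1, against 9.46 on KO 2 and 9.40 on WT 2. Its 3′ control split less, with 11.19 on KO 1 and 11.67 on WT 1, against 10.64 on KO 2 and 10.68 on WT 2. Xist, the RNA of the inactive X chromosome, was at 5.26 and 5.45 in KO cells, against 13.28 and 13.19 in WT cells, and the Y-linked Eif2s3y was at 9.60 and 9.57 in KO cells, against 3.05 and 2.86 in WT cells. Genotype and this sex-linked difference cannot be told apart.

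The first question was whether loss of miR-205 came with a change in these genes. No member passed the test: with limma and Benjamini-Hochberg adjustment over all genes, 0 of 28 had an adjusted p under 0.05, against 0.0110% of all genes, and the smallest adjusted p among members was 1. The 2 genes that passed were Xist and Eif2s3y (adjusted p = 0.038 each). The Y-linked Kdm5d, which differed by 4.49 (limma adjusted p = 0.255), and Uty, which differed by 3.48, did not pass. Failing this test therefore does not show that a gene is unchanged. At an unadjusted p under 0.05 there were again 0 of 28, against 1.88% of all genes. The members' differences, KO minus WT, ran from -0.15 (Insig1) to 0.24 (Sqle and Insig2), with a median of 0.056, against a median of 0.0082 over all genes and 0.017 over genes at or above the median level. 23 members had a higher mean in KO and 5 a lower one, so 82.1% were higher, against 53.2% of all genes and 56.9% of the brighter genes. The count was 17 without KO 1, 16 without KO 2, 17 without WT 1 and 18 without WT 2. The members' median was 0.018 without KO 1, 0.021 without KO 2, 0.021 without WT 1 and 0.060 without WT 2, and it was 0.024 when all probe sets of a gene were averaged. All 10 fibroblast markers had a lower mean in KO cells (median difference -0.48), but the direction differed by number: 0 were higher and 9 lower on KO 1 than on WT 1, whereas 8 were higher and 2 lower on KO 2 than on WT 2 (median difference 0.31). For 0 of the 10 did both KO arrays lie below both WT arrays. Of the 8 sebaceous markers, 7 were higher on KO 1 than on WT 1 and 2 on KO 2 than on WT 2. Of the 7 basal keratinocyte markers 6, and of the 6 markers of differentiated epidermis 5, had a higher mean in KO cells. Both KO arrays lay above both WT arrays in 4 and 3 of these, against 8.20% of all genes, and below in 0. Krt1 differed by 1.25 and Krt10 by 0.81, whereas Ivl differed by -0.11. In 3 of the 5 endothelial markers, most of them dim, both KO arrays lay below both WT arrays, against 5.70% of all genes. The part of all these markers in the members' differences was not tested. In these bulk samples, fewer cells of a type and less RNA per cell cannot be told apart.

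The direction was often carried by 1 number. Between the number 1 arrays the median member differed by 0.088, and between the number 2 arrays by 0.015. 14 of 28 members (50.0%) had the same sign within both numbers, 12 of them higher and 2 lower in KO, against 40.8% of all genes and 47.7% of the brighter genes. In 2 members, Hmgcs1 and Lss, both KO arrays lay above both WT arrays, a share of 7.14%, against 8.20% of all genes. No member had both KO arrays below both WT arrays, against 5.70% of all genes.

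**Figure D1:**
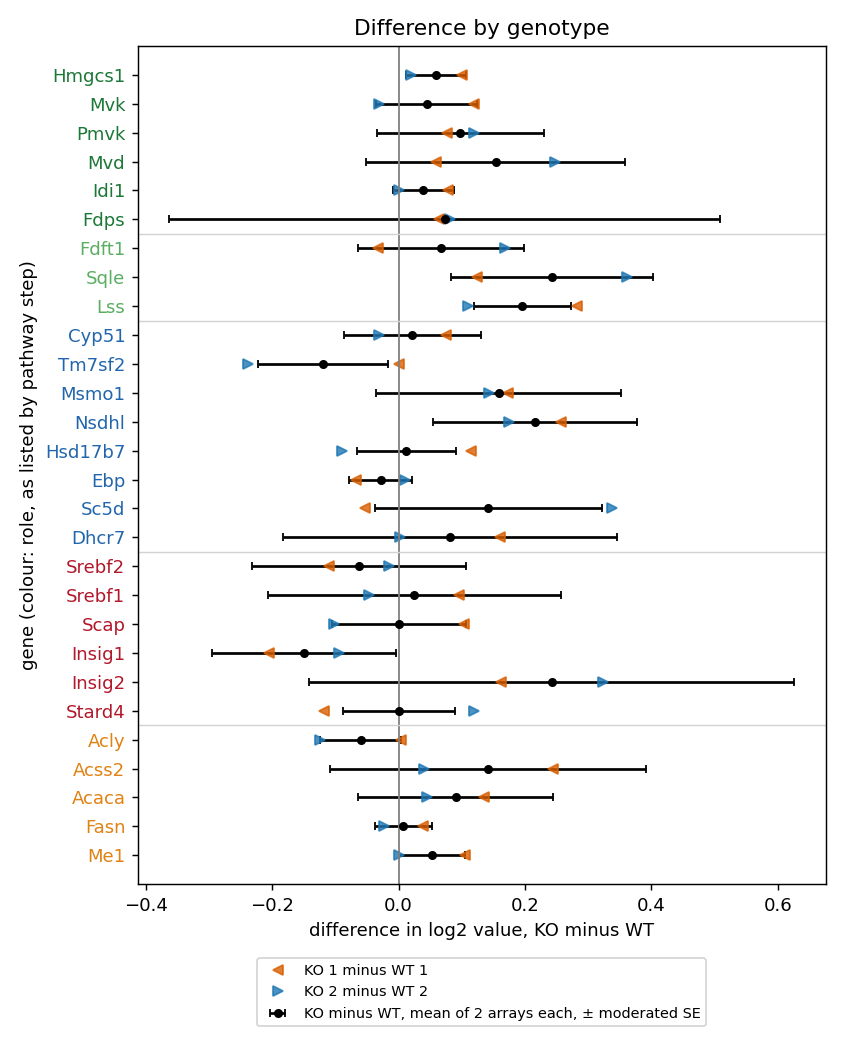
KO minus WT for each of the 28 members on the log2 scale (horizontal axis), ordered by pathway step (vertical axis, label colour by role). Black points are the difference of group means with the moderated SE (2 arrays per group), and triangles the differences within number 1 and number 2. Every black point lies between -0.15 and 0.24, and the triangles of Sc5d and Stard4 lie on opposite sides of 0.

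Among the mevalonate enzymes, all 6 had a higher mean in KO cells, by 0.039 to 0.15. Hmgcs1, the HMG-CoA synthase that makes the precursor of mevalonate, was at 12.44 and 12.37 in KO cells, against 12.34 and 12.35 in WT cells. The KO arrays lay just above the WT arrays, and the difference was 0.060 with an SE of 0.047 (limma adjusted p = 1). 3 of its 4 other probe sets differed by 0.073 to 0.10, and the dimmest by -0.14. Idi1, the isomerase of the isoprenoid diphosphates, was at 10.65 and 10.58 in KO cells, against 10.57 and 10.58 in WT cells. KO 2 and WT 2 were equal, and its second probe set differed by -0.14. Mvk, mevalonate kinase, was at 7.72 and 7.75 in KO cells, against 7.60 and 7.78 in WT cells. The groups overlapped, the difference was 0.045 (SE 0.080), and its second probe set differed by -0.016. Pmvk, the kinase that acts next, was at 8.40 and 8.64 in KO cells, against 8.32 and 8.52 in WT cells, a difference of 0.098 (SE 0.13). Mvd, the decarboxylase that follows both kinases, differed by 0.15 (SE 0.20).

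The squalene and lanosterol steps held the 2 members of smallest p in this fit, which leaves out the replicate number. With the number added to the fit, Nsdhl came first (limma unadjusted p = 0.039), ahead of Sqle (0.0905) and Lss (0.0914), and none passed. Lss, lanosterol synthase, which closes the sterol rings, was at 8.84 on both KO arrays, against 8.56 and 8.73 in WT cells. The groups did not overlap, and WT 1 was the lowest array. The difference was 0.20 with an SE of 0.077, a 1.15-fold higher value (95% interval -0.047 to 0.44, limma unadjusted p = 0.083, adjusted p = 1), and its second bright probe set differed by 0.12. Sqle, squalene epoxidase, the first oxygen-requiring step, was at 9.62 and 9.99 in KO cells, against 9.50 and 9.63 in WT cells. KO 2 stood apart and KO 1 lay within the WT range, so that the difference of 0.24 (SE 0.16, limma adjusted p = 1) was mostly that of the number 2 arrays (0.36, against 0.12 for number 1). Fdft1, squalene synthase, was at 10.34 and 10.64 in KO cells, against 10.37 and 10.47 in WT cells. The WT arrays lay between the KO arrays, and the difference was 0.067 (SE 0.13), with opposite signs in the 2 numbers.

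Of the 8 enzymes that turn lanosterol into cholesterol, 6 had a higher and 2 a lower mean in KO cells. Nsdhl, an X-linked dehydrogenase that helps remove methyl groups from the sterol ring, was at 9.19 and 9.42 in KO cells, against 8.94 and 9.25 in WT cells. KO was the higher within each number, by 0.26 and 0.17, but the groups overlapped, and the difference was 0.22 with an SE of 0.16 (limma adjusted p = 1). Ebp, the sterol isomerase and the other X-linked member, was at 9.15 and 9.14 in KO cells, against 9.21 and 9.13 in WT cells, a difference of -0.028 (SE 0.050). Its sign was opposite in the 2 numbers (-0.067 in number 1 and 0.011 in number 2). Msmo1, the methylsterol oxidase that acts before Nsdhl, was at 10.61 and 10.93 in KO cells, against 10.44 and 10.78 in WT cells, 0.16 higher on average (SE 0.19). Tm7sf2, a sterol reductase, had the same value, 7.03, on both KO arrays and WT 1, against 7.27 on WT 2, so its difference of -0.12 (SE 0.10) came from 1 array. In 3 further enzymes the sign was opposite in the 2 numbers. Cyp51, the sterol demethylase of the cytochrome P450 family, was at 9.43 and 9.54 in KO cells, against 9.35 and 9.57 in WT cells (difference 0.022, SE 0.11). Hsd17b7, a sterol keto reductase, was at 9.04 and 9.00 in KO cells, against 8.93 and 9.09 in WT cells (difference 0.013, SE 0.078). Sc5d, a sterol desaturase, was at 8.91 and 9.34 in KO cells, against 8.96 and 9.00 in WT cells (difference 0.14, SE 0.18), and KO 2 alone stood high. Dhcr7, the reductase of the final step, differed by 0.16 in number 1 and by 0.0024 in number 2.

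Regulators of the pathway had no common direction by genotype. Srebf2 was at 8.42 and 8.75 in KO cells, against 8.53 and 8.76 in WT cells, a difference of -0.062 (SE 0.17), and Srebf1 at 10.18 and 9.72 in KO cells, against 10.09 and 9.76 in WT cells, a difference of 0.025 (SE 0.23). For both genes the spread within a genotype was far wider than the difference between genotypes. Insig1, itself a target of SREBPs, was at 9.15 and 9.45 in KO cells, against 9.36 and 9.54 in WT cells. It was lower in KO within both numbers, and the difference was -0.15 with an SE of 0.15 (limma adjusted p = 1). Insig2, its partner, was at 9.99 and 9.40 in KO cells, against 9.82 and 9.08 in WT cells, 0.24 higher (SE 0.38), and its 2 other probe sets differed by 0.23 and 0.28. Scap, the escort protein, was at 9.99 and 9.75 in KO cells, against 9.89 and 9.85 in WT cells, a difference of 0.00071 (SE 0.11). Stard4, a carrier that moves cholesterol between membranes, was at 8.74 and 8.93 in KO cells, against 8.86 and 8.82 in WT cells, a difference of 0.0010 (SE 0.088). In both genes the 2 numbers had opposite signs.

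The 5 fatty acid enzymes had differences of -0.059 to 0.14. Fasn, fatty acid synthase, was at 9.51 on both KO arrays, against 9.47 and 9.53 in WT cells, a difference of 0.0077 (SE 0.045, 95% interval -0.13 to 0.15). Me1, the malic enzyme that supplies NADPH, was at 9.57 and 9.49 in KO cells, against 9.47 and 9.49 in WT cells (difference 0.053, SE 0.052). For Acly, the citrate lyase that releases cytosolic acetyl-CoA, the probe sets disagreed: the one used was at 10.47 and 10.34 in KO cells, against 10.47 on both arrays in WT cells, a difference of -0.059 (SE 0.064), and 2 others differed by 0.077 and 0.090. Acss2, the acetyl-CoA synthetase, and Acaca, the carboxylase that commits acetyl-CoA to fatty acids, differed by 0.14 (SE 0.25) and 0.090 (SE 0.15), higher in KO within both numbers.

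Replicate number separated the arrays more than genotype did for most members. For 24 of 28 members (85.7%) the number difference was larger in size than the genotype difference, against 65.4% of all genes and 70.7% of the brighter genes, and its median size was 0.21, against 0.11 and 0.13 in those sets. The median size of the genotype difference was 0.070 in the members, 0.068 in all genes and 0.066 in the brighter genes. The number is not described as a batch in the labels, so these differences are given as values, with no test.

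**Figure D2:**
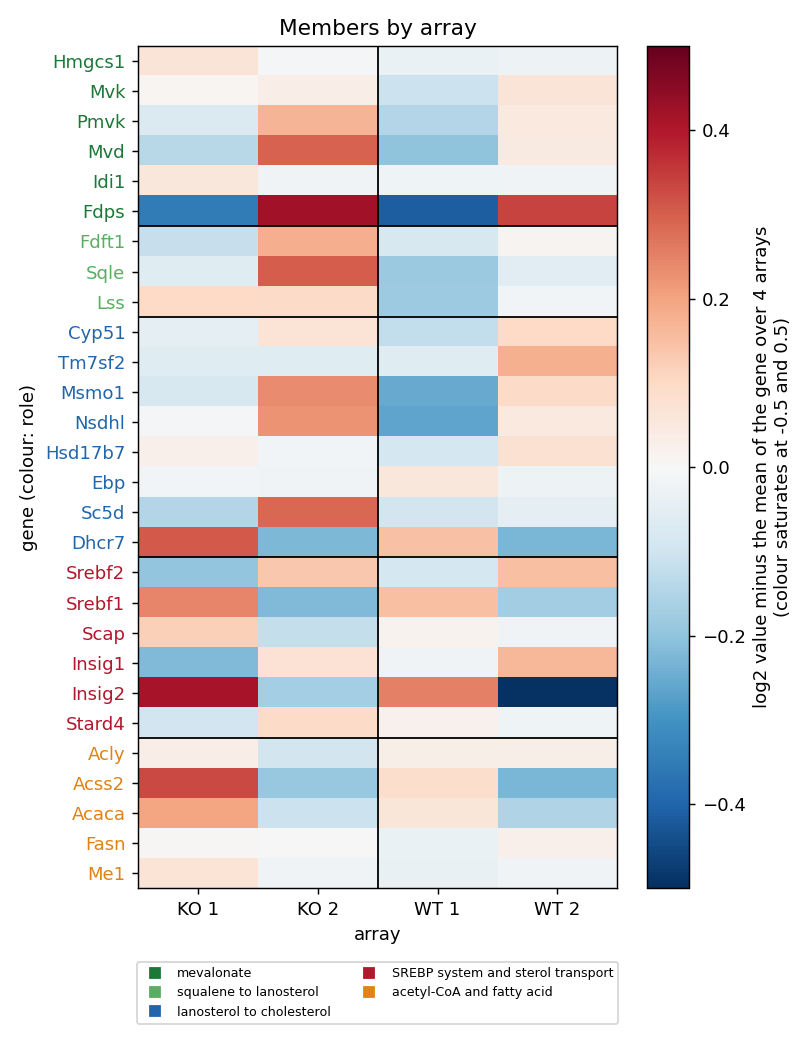
Log2 value of each member minus its mean over the 4 arrays (colour, saturating at -0.5 and 0.5), with KO 1, KO 2, WT 1 and WT 2 across and the 28 genes down, grouped by role. Fdps, Mvd, Msmo1 and Srebf2 are blue on KO 1 and WT 1 and red on KO 2 and WT 2, and Insig2, Dhcr7, Srebf1, Acss2 and Acaca show the reverse.

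Members lay on both sides. In 12 of 28 (42.9%), both number 1 arrays lay below both number 2 arrays, against 21.7% of all genes and 19.6% of the brighter genes. The 12 were Mvk, Pmvk, Mvd, Fdps, Fdft1, Sqle, Cyp51, Msmo1, Nsdhl, Sc5d, Srebf2 and Insig1. In 7 of 28 (25.0%), both number 1 arrays lay above both number 2 arrays, against 22.0% of all genes and 36.1% of the brighter genes. These were Ebp, Dhcr7, Srebf1, Scap, Insig2, Acss2 and Acaca. By role, 10 of the 17 cholesterol enzymes were lower and 2 (Ebp and Dhcr7) higher on the number 1 arrays, and of the 5 fatty acid enzymes 2 were higher and 0 lower by this measure. The members were chosen with earlier results of these data known, and the split into these groups was made on the values.

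A fold limit left fewer. At least 1.2-fold lower on number 1 within both genotypes were 2 members, Fdps and Msmo1 (7.14%), against 3.18% of all genes and 3.62% of the brighter genes. At least 1.2-fold higher were 4 members, Dhcr7, Srebf1, Insig2 and Acss2 (14.3%), against 5.58% of all genes and 8.49% of the brighter genes. Nsdhl (-0.23 in KO and -0.31 in WT), Acaca (0.30 and 0.21), Mvd (-0.43 and -0.25) and Srebf2 (-0.33 and -0.24) were among those that missed the limit of 0.26 on the log2 scale in 1 genotype only.

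**Figure D3:**
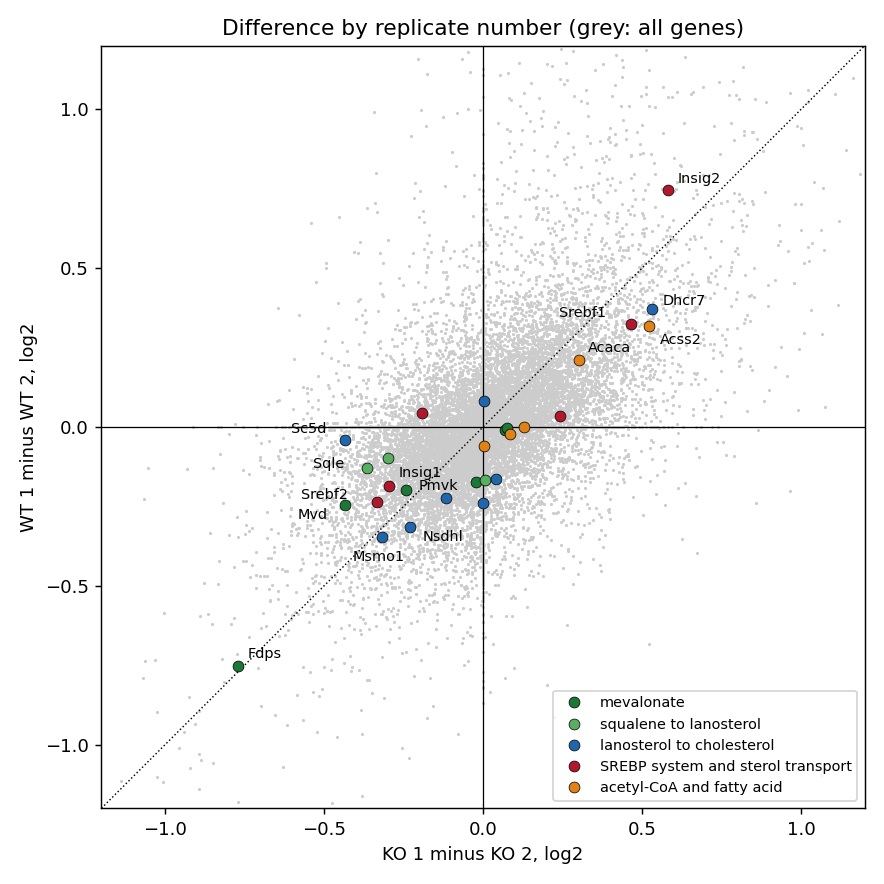
Number 1 minus number 2 within KO (horizontal axis) and within WT (vertical axis) on the log2 scale, members in colour by role and all genes in grey. Fdps sits near -0.77 and -0.75, Insig2 near 0.58 and 0.75, and the dotted line marks equal differences in both genotypes. 199 genes lie outside the axes, none of them a member.

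Fdps, the synthase of farnesyl diphosphate, showed the widest gap. It was at 9.88 on KO 1 and 9.81 on WT 1, against 10.65 on KO 2 and 10.57 on WT 2, so that number 1 was lower by nearly the same amount in each genotype (-0.77 and -0.75, a 1.69-fold difference on average). Against that, its KO minus WT difference was 0.073 with an SE of 0.44. Mvd was at 7.50 on KO 1 and 7.44 on WT 1, against 7.93 on KO 2 and 7.69 on WT 2, and Msmo1 at 10.61 on KO 1 and 10.44 on WT 1, against 10.93 on KO 2 and 10.78 on WT 2. Both were lower on the number 1 arrays, by 0.34 and 0.33 on average. Srebf2 went the same way (-0.28), with 8.42 on KO 1 and 8.53 on WT 1, against 8.75 on KO 2 and 8.76 on WT 2.

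The opposite order was seen in the other SREBP gene and in the second INSIG gene. Insig2 was 0.58 higher on KO 1 than on KO 2 and 0.75 higher on WT 1 than on WT 2, 1.59-fold on average, and the 2 INSIG genes thus ran in opposite directions, Insig1 being -0.30 and -0.18. Srebf1 was higher on number 1 by 0.47 in KO and 0.32 in WT, opposite to Srebf2. Dhcr7 was at 9.13 on KO 1 and 8.97 on WT 1, against 8.60 on KO 2 and 8.59 on WT 2, a 1.37-fold gap opposite to most sterol enzymes. Acss2 was at 8.53 on KO 1 and 8.28 on WT 1, against 8.01 on KO 2 and 7.97 on WT 2, and Acaca at 9.33 on KO 1 and 9.19 on WT 1, against 9.03 on KO 2 and 8.98 on WT 2. Fasn, by contrast, differed by 0.0032 in KO and -0.059 in WT, and Hmgcs1 by 0.070 and -0.010.

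**Figure D4:**
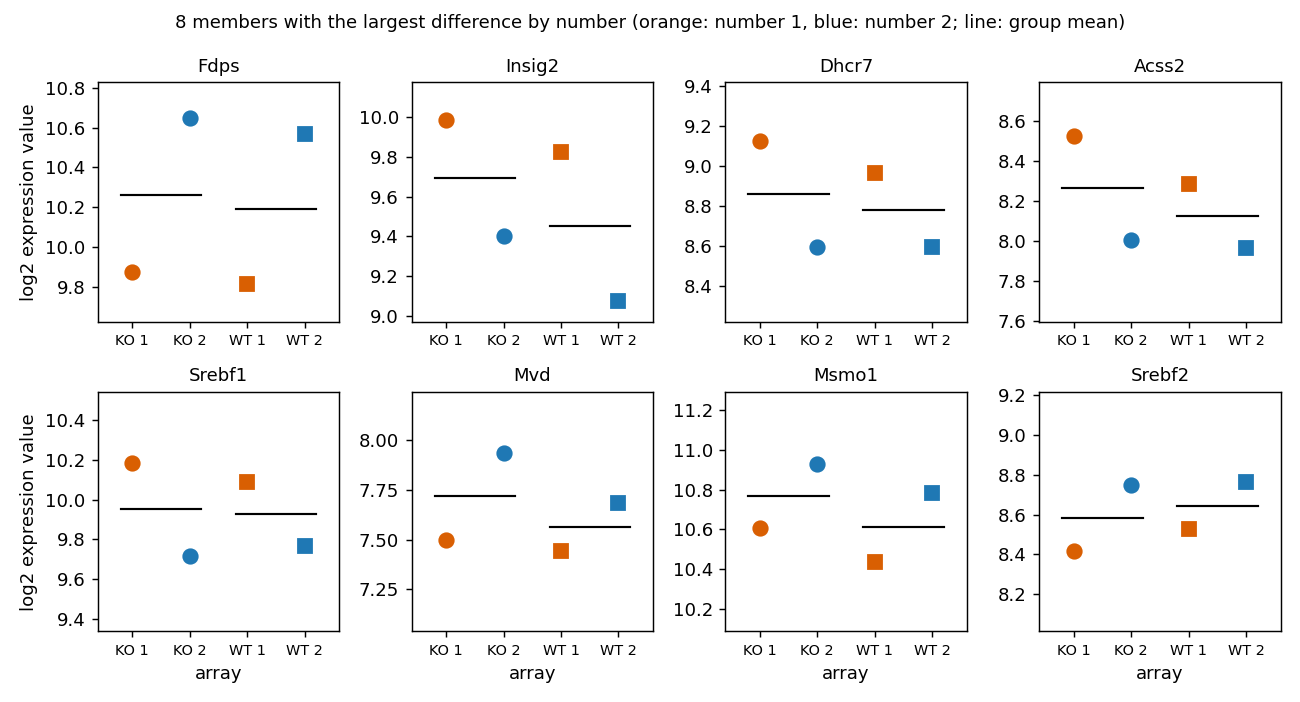
Log2 values on KO 1, KO 2, WT 1 and WT 2 for the 8 members with the largest difference by number, circles for KO and squares for WT, orange for number 1 and blue for number 2, with a line at each group mean. Each panel spans 1.2 log2 units, and in all 8 the orange points lie on 1 side of the blue ones.

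The number difference had the same sign in KO and in WT in 19 of 28 members (67.9%), against 57.3% of all genes and 69.2% of the brighter genes, a share close to that of the brighter genes. Several measures moved with the number. Besides the fibroblast markers, the Actb excess and the 18S control given above, 4 of the 5 melanocyte markers were higher on both number 1 arrays and 0 lower, with a median number difference of 0.51. Of the 9 HFSC markers, 4 were higher and 0 lower by this measure, with a median number difference of 0.11. By the same measure, 22.0% of all genes were higher and 21.7% lower, and 36.1% and 19.6% of the brighter genes, which include all 9 HFSC markers. Elovl3, a fatty acid elongase of sebocytes, and Cidea, a lipid droplet protein, were lower on number 1, with Elovl3 at 8.52 on KO 1 and 7.61 on WT 1, against 9.37 on KO 2 and 9.38 on WT 2. Of the 8 sebaceous markers measured, 4 were lower and 2 higher on both number 1 arrays. Their median was 8.62 on KO 1 and 8.11 on WT 1, against 8.72 on KO 2 and 8.88 on WT 2. Of the 7 adipocyte markers, the 2 at or above the median gene level were higher on number 1. Fabp4, a fatty acid carrier, was at 8.56 on KO 1 and 9.20 on WT 1, against 7.84 on KO 2 and 7.30 on WT 2, and Lpl, lipoprotein lipase, at 11.14 on KO 1 and 11.64 on WT 1, against 10.56 on KO 2 and 10.61 on WT 2. The other adipocyte markers were dim, among them the hormone gene Adipoq (3.47 to 3.76). The part of these measures in the members' differences was not tested.

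Other probe sets gave a check on the number differences. The members had 64 probe sets in all, 36 of them not used above, and 22 of these 36, in 15 genes, lay at or above the median gene level. Of the 22, 18 had the same sign of number difference as the probe set used and 15 the same sign of genotype difference. No member probe set passed in a fit of every probe set, and 0 of 64 had an unadjusted p under 0.05 (limma). The second probe set of Mvd differed by -0.66, that of Srebf2 by -0.61 and that of Fdft1 by -0.44, each larger in size than the one used, and those of Insig2 by 0.65 and 0.54. Hsd17b7 was discordant in size: the probe set used differed by -0.062 and another by -0.51, with 8.50 on KO 1 and 8.33 on WT 1, against 8.91 on KO 2 and 8.93 on WT 2. Cyp51 and Lss had bright probe sets of opposite sign (-0.17 and 0.13 for Cyp51, -0.080 and 0.12 for Lss), so their order by number depends on the probe set.

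**Figure D5:**
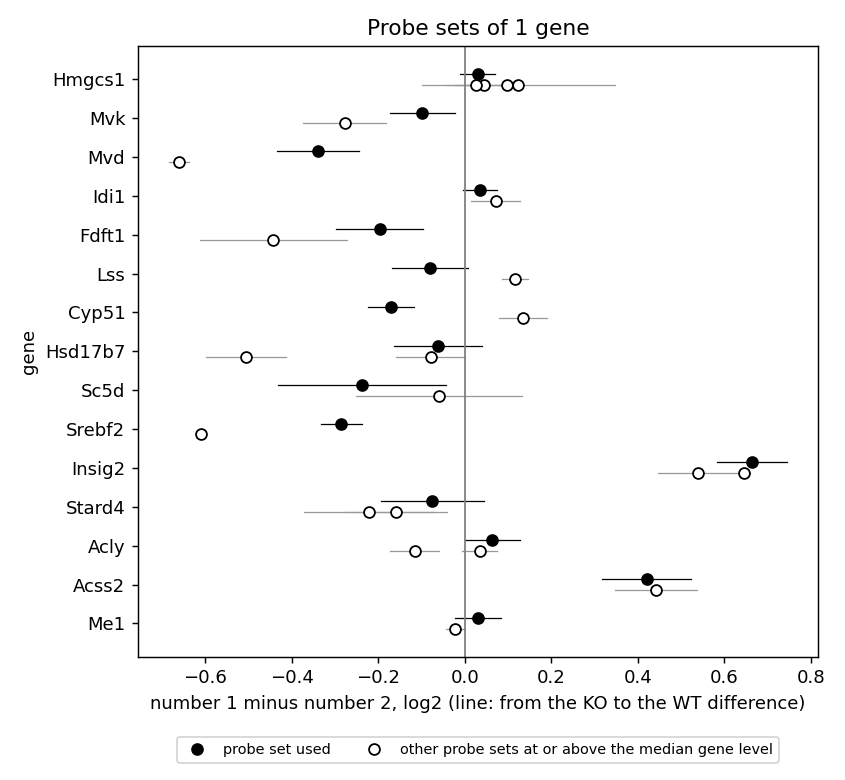
Number 1 minus number 2 on the log2 scale for every probe set at or above the median gene level, in the 15 members with more than 1, filled for the probe set used and open for the others, with a line from the KO to the WT difference. Mvd, Fdft1, Srebf2 and Hsd17b7 have open points farther from 0 than the filled one, and Lss, Cyp51, Acly and Me1 have points on both sides of 0.

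Genes around the pathway were taken from a separate list, of which 18 were measured. None passed (limma, smallest adjusted p = 1), and 1 of the 18 had an unadjusted p under 0.05, against 1.88% of all genes. In KO cells 8 were higher and 9 lower, with a median of -0.0023, whereas 53.2% of all genes were higher. Both KO arrays lay above both WT arrays in 3 of the 18, against 8.20% of all genes, and below in 0, against 5.70%. Aacs, acetoacetyl-CoA synthetase, which feeds ketone bodies into sterol synthesis, was at 8.50 and 8.58 in KO cells, against 8.30 and 8.33 in WT cells. The groups did not overlap, and the difference was 0.22 with an SE of 0.052 (limma unadjusted p = 0.023, adjusted p = 1). Idh1, a cytosolic source of NADPH, was at 11.99 and 11.88 in KO cells, against 11.78 and 11.73 in WT cells, 0.18 higher (SE 0.063). Elovl6, a fatty acid elongase, differed by 0.42 (SE 0.25), by 0.67 within number 1 and 0.17 within number 2. Nr1h3, a sterol-sensing nuclear receptor, differed by -0.19 (SE 0.13). It lay below the median gene level (mean 5.57), and KO 1 stood apart at 5.32, against 5.63 to 5.69 on the other arrays. By number, 6 of the 18 were higher and 3 lower on both number 1 arrays, against 22.0% higher and 21.7% lower of all genes. Abca1, the sterol exporter, named after its values were seen, was at 10.16 on KO 1 and 10.28 on WT 1, against 9.67 on KO 2 and 9.70 on WT 2, the order of Srebf1 and Insig2. Acacb, also named after its values were seen, had the widest number difference of the 18 and went the other way. Its number 1 minus number 2 was -0.36 in KO and -0.80 in WT, at a level just below that of the median gene.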

How the data were processed

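Messenger RNA of 4 samples (2 KO, 2 WT) was measured on 1-colour Affymetrix arrays. The authors deposited log2 values that had been processed by RMA (version unstated), per the submitters' processing notes. RMA brings the arrays to a common distribution. The deposited log2 table has no detection calls, so dim probe sets cannot be told from background, and 47.1% of its 45101 probe sets had exactly equal values on at least 2 arrays, as had 4 of the 28 probe sets used.

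Groups and numbers came from the sample titles. Probe sets with 1 symbol in GEO's platform annotation (34945, against 932 with several, 9160 with none here and 64 controls) were kept, with symbols updated by gene identifier (34741 matched GRCm38.p6). KO was compared with WT with lmFit and eBayes of limma 3.58.1 under R 4.3.3, two-sided and without covariates or a filter, with Benjamini-Hochberg adjustment over 18193 genes and a threshold of 0.05. Standard errors (SE) are moderated, and having 2 arrays in a group limits the precision. They take in the difference between numbers: for Fdps the SE was 0.44, against 0.045 with a replicate block. The fit was tested on simulated data with shifts far larger than the members' differences and no effect of number, so that test does not cover differences of their size. Differences by number, medians and counts carry no test.

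All members are named. Those given array by array are the 8 of smallest p, the 8 with the largest number difference of 1 sign in both genotypes, and those whose probe sets disagree in sign. The rest are added for completeness. From the other pathway genes the 4 of smallest p are named, with Abca1 and Acacb added after their values were seen, and marker genes where they move with a result. The members, lists and limits were chosen with earlier results of these data known. Alternatives were another normalization, a filter on dim genes, other probe set rules, a replicate block, other eBayes settings, another threshold and leaving out each array.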

Additional observations from a re-analysis of the deposited data

How the results depend on the processing

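No member passed under any alternative run with limma, whether renormalized, filtered, with other probe set rules, with the replicate block, with other eBayes settings, at an adjusted p under 0.1 or without 1 array. With the replicate block 0 members and 0 genes passed, with 1 member (Nsdhl) and 879 genes at an unadjusted p under 0.05. Arrays of 1 number deviated together (r = 0.86 across the 28 members and 0.56 across all genes), but with 2 pairs this is only a hint from the data that the numbers pair the samples. Over all genes, the count of 2 was 1 without genes below the median level, 0 with the mean of probe sets (375 unadjusted), 0 without _x_at and _s_at probe sets (343 unadjusted), 0 with the block, and 0 without any 1 array (unadjusted counts 1044 to 2044). The median difference of the members, KO minus WT, was 0.024 with the mean of probe sets and 0.018 to 0.060 without single arrays. Without KO 1, KO 2 and WT 1 it was 0.018, 0.021 and 0.021, and the members higher in KO numbered 16 to 18 over the 4 arrays left out in turn. The median number difference was -0.15 after quantile normalization again, against -0.078.

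The sign of the KO minus WT difference changed for Acly without _x_at and _s_at probe sets (0.077), for Idi1 with the mean of probe sets (-0.049), for Scap with quantile normalization again (-0.00017) and with the mean of probe sets (-0.12), and for Stard4 with quantile normalization again (-0.013). Other probe sets of opposite sign at or above the median gene level were those of Acly (0.077 and 0.090), Hmgcs1 (-0.14), Hsd17b7 (-0.024), Idi1 (-0.14), Mvk (-0.016) and Sc5d (-0.17). Those below that level, which cannot be told from background, were of Acaca (-0.060), Fdft1 (-0.081), Fdps (-0.058), Hsd17b7 (-0.050), Msmo1 (-0.11) and Scap (-0.23). Leaving out 1 array makes the numbers unequal between the groups by construction, and 20 members then changed sign at least once. Their ranges were -0.042 to 0.13 for Mvk, -0.023 to 0.22 for Pmvk, -0.064 to 0.37 for Mvd, -0.31 to 0.46 for Fdps, -0.081 to 0.22 for Fdft1, -0.090 to 0.13 for Cyp51, -0.015 to 0.33 for Msmo1, -0.070 to 0.095 for Hsd17b7, -0.069 to 0.013 for Ebp, -0.074 to 0.36 for Sc5d, -0.18 to 0.35 for Dhcr7, -0.23 to 0.10 for Srebf2, -0.21 to 0.26 for Srebf1, -0.12 to 0.12 for Scap, -0.13 to 0.62 for Insig2, -0.096 to 0.098 for Stard4, -0.12 to 0.0047 for Acly, -0.12 to 0.40 for Acss2, -0.061 to 0.24 for Acaca and -0.022 to 0.037 for Fasn. The sign changes under the probe set rules follow from the probe sets taken. The Acly probe set used is itself an _x_at one, and without it another (0.077) took its place. The means for Idi1 and Scap took in their second probe sets (-0.14 and -0.23), that of Scap being dim. For the sign changes under quantile normalization the cause was not tested.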
